A study of Rattus norvegicus with 12 samples.

Results

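Osteopontin (Spp1), bone sialoprotein (Ibsp), dentin matrix protein 1 (Dmp1) and matrix extracellular phosphoglycoprotein (Mepe) are acidic phosphoproteins of mineralized matrix, and their 4 genes were followed here among 14217 genes named on the array. They were chosen by name from the small integrin-binding ligand, N-linked glycoprotein family, with earlier results of these data known. They were read from probe sets that the platform annotation gives to 1 of these genes alone. Dspp, the dentin gene of the same family, was not among those chosen, although it was measured, and its value is given beside theirs. Each gene had 1 probe set, which was 1367581_a_at for Spp1, 1368416_at for Ibsp, 1393756_at for Dmp1 and 1387330_at for Mepe. Bone RNA of female Sprague-Dawley rats at postnatal day 81 was hybridized to Affymetrix GeneChip rat genome arrays, with 3 pools per group and equal RNA from 2 to 3 rats in each pool. STBB OVX rats were fed a diet with 10% freeze-dried blueberry (BB) from postnatal day 20 to 34, then the casein control diet, and were ovariectomized on postnatal day 60. LTBB OVX rats were fed the BB diet from postnatal day 20 until sacrifice and were ovariectomized on the same day. OVX rats were ovariectomized on the control diet, and Sham rats had sham surgery on the control diet. No sham-operated rats on the BB diet were among these samples, so surgery and diet both differ wherever a BB group is set against Sham. Because RNA was pooled, the spread between arrays is the spread between pools, not between rats, and the sample labels name the femur where the methods name the right tibia.

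These proteins are secreted into the matrix by cells of bone, dentin and mineralizing cartilage. They carry many acidic and phosphorylated residues that bind calcium and the surface of hydroxyapatite, and an Arg-Gly-Asp motif that binds integrins. Osteopontin is known to restrain crystal growth and to anchor osteoclasts, and it is also made by osteoclasts, macrophages and hypertrophic chondrocytes. Bone sialoprotein nucleates hydroxyapatite in vitro and is made by osteoblasts and hypertrophic chondrocytes. Dmp1 and Mepe are expressed mainly by osteocytes. Loss of Dmp1 in mice and humans causes hypophosphatemic rickets with high Fgf23, and the acidic peptide released from Mepe inhibits mineralization.

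The genes lie side by side on rat chromosome 14 in the order Spp1, Mepe, Ibsp and Dmp1, with 0 other protein-coding genes between them in the RefSeq annotation of assembly GRCr8. Their promoter windows were read from RefSeq (300 bases, with 250 before and 50 after the annotated start), and all 4 genes were matched. Regulation through these windows was not tested. The windows of Ibsp (chr14:5757193-5757492, minus strand, GRCr8) and Mepe (chr14:5736809-5737108, minus strand, GRCr8) are printed 5′ to 3′, since the annotated gene begins at the start of each. The records of Spp1 and Dmp1 reach further upstream than the start of their windows, and those are not shown. Capitals mark, on either strand, the RUNX core TGTGGT, the TATA box TATAAA, the inverted CCAAT box ATTGG and the cAMP response half-site TGACGT.
Ibsp promoter: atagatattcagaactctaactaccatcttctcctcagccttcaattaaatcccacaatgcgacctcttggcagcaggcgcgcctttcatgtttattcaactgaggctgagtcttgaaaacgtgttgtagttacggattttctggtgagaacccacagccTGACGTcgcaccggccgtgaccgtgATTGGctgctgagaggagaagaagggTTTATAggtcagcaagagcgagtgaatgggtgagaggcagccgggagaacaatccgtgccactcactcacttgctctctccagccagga
Mepe promoter: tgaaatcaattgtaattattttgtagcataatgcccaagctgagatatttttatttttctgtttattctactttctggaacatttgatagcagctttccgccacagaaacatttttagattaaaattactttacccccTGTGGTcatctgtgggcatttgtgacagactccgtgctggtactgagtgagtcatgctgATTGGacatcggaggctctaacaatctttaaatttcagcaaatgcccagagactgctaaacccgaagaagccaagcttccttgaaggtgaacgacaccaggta

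The Ibsp window held, counted from the annotated start, the cAMP response half-site at position -90, the inverted CCAAT box at -65 and the TATA box, on the opposite strand, at -39. The nuclear receptor half-site AGGTCA at -34 shared its first base with that TATA box. In the Mepe window the RUNX core was at -112, an AP-1 site TGANTCA at -65 and the inverted CCAAT box at -53, and the homeodomain core TAATT occurred 3 times. Of 33469 RefSeq windows of the same length, 17.3% held the RUNX core, 14.2% the TATA box, 37.5% the inverted CCAAT box, 7.94% the cAMP response half-site, 16.2% AGGTCA, 7.33% the AP-1 site and 28.5% TAATT. No motif of these was present in all 4 windows, while the E box CANNTG was (72.1% of all windows). The start used for Spp1 and Dmp1 lies inside the annotated gene, so this is no count over 4 promoters. The GC content was 51.0% in the Ibsp window and 40.0% in the Mepe window, against a median of 51.7% over all windows.

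All values are centred log2 values: in the deposited table every probe set had a median of 0 over the 12 arrays, so differences between groups could be read but levels could not, and the 4 genes could not be ordered by abundance. Over all genes, principal component 1 took up 86.0% of the variance and set the 3 Sham arrays (-113 to -106) apart from the 9 arrays of ovariectomized rats (30.1 to 42.7). In the contrast of OVX with Sham, 58.9% of genes passed limma at an adjusted p of 0.05, 4301 of them higher and 4066 lower. Calls on single genes are therefore read beside that share. Fewer cells of a type and less RNA per cell cannot be told apart in bone RNA of this kind. Nor can surgery be told apart from any difference in the tissue taken or its handling that the 3 Sham arrays share.

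The 4 genes were all higher in ovariectomized than in sham-operated bone, by 6.37 to 11.9-fold in OVX rats on the control diet, and no pool of any ovariectomized group reached a Sham pool. Dspp, the family gene left out of the choice, was at -0.040 in OVX against Sham (SE 0.068, limma adjusted p = 0.641) and was not called, so the count of 4 of 4 holds for the chosen genes and not for the family. This count stands beside shares of all genes called higher against Sham of 30.3% for OVX, 29.2% for LTBB OVX and 29.3% for STBB OVX. By the limma F test among the 4 groups, which called 55.6% of genes, the adjusted p was 3.4e-09 for Spp1, 4.7e-12 for Ibsp, 2.9e-11 for Dmp1 and 2.8e-09 for Mepe. Every ovariectomized pool was above every Sham pool in all 4 genes, as it was in 27.1% of all genes.

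**Figure D1:**
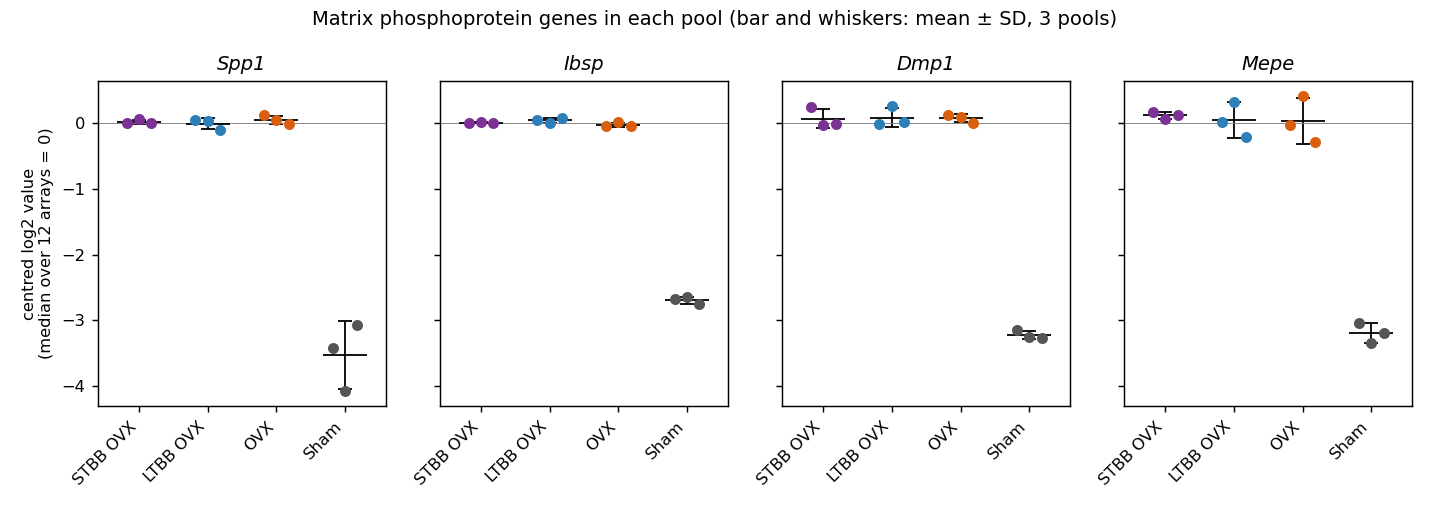
Centred log2 value (y axis) of Spp1, Ibsp, Dmp1 and Mepe in the 3 pools of each group (x axis), with bars and whiskers for the mean ± SD. The 9 pools of ovariectomized rats sit between -0.28 and 0.42, and the 3 Sham pools sit between -4.08 and -2.65.

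Spp1, which encodes osteopontin, had values of -0.0010, 0.061 and 0.0010 in STBB OVX pools, 0.045, 0.040 and -0.10 in LTBB OVX pools and 0.12, 0.048 and -0.0061 in OVX pools, against -3.41, -4.08 and -3.06 in Sham pools. All 9 ovariectomized pools were high and all 3 Sham pools low, and the gap between the lowest ovariectomized and the highest Sham pool was 2.96 log2 units. The group means were 0.020 ± 0.035 in STBB OVX, -0.0060 ± 0.084 in LTBB OVX, 0.053 ± 0.062 in OVX and -3.52 ± 0.52 in Sham (SD, n = 3 pools each). In the order OVX, STBB OVX, LTBB OVX and Sham, the first 3 groups overlapped and only Sham stood apart. The log2 difference of OVX from Sham was 3.57 (SE 0.18, 95% confidence interval 3.18 to 3.97, 11.9-fold, limma adjusted p = 2.8e-09), rank 26 from the highest of 14217 genes. Spp1 was also higher by 3.51 (SE 0.18) in LTBB OVX and by 3.54 (SE 0.18) in STBB OVX than in Sham (limma adjusted p = 3.2e-09 and 2.9e-09).

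Ibsp, the gene of bone sialoprotein, had values of 0.0037, 0.015 and -0.0037 in STBB OVX pools, 0.042, 0.0087 and 0.080 in LTBB OVX pools and -0.044, 0.012 and -0.037 in OVX pools, against -2.68, -2.65 and -2.76 in Sham pools. The pools of each group lay close together, within 0.12 over all ovariectomized pools and 0.11 over Sham pools, and the 2 sets were 2.60 apart. The means were 0.0049 ± 0.0093 in STBB OVX, 0.043 ± 0.036 in LTBB OVX, -0.023 ± 0.030 in OVX and -2.69 ± 0.057 in Sham (SD, n = 3 pools each). The order was LTBB OVX, STBB OVX, OVX and Sham, with overlap among the first 3. The difference of OVX from Sham was 2.67 (SE 0.058, 95% confidence interval 2.55 to 2.80, 6.37-fold, limma adjusted p = 5.0e-12), rank 100 of all genes. Against Sham, LTBB OVX was higher by 2.74 and STBB OVX by 2.70 (SE 0.058 each, limma adjusted p = 3.8e-12 and 4.4e-12).

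Dmp1, an osteocyte gene, had values of 0.24, -0.028 and -0.0058 in STBB OVX pools, -0.017, 0.25 and 0.018 in LTBB OVX pools and 0.12, 0.096 and 0.0058 in OVX pools, against -3.15, -3.25 and -3.26 in Sham pools. One pool of STBB OVX and one of LTBB OVX were above the other pools, and the lowest ovariectomized pool was 3.12 above the highest Sham pool. The means were 0.069 ± 0.15 in STBB OVX, 0.085 ± 0.15 in LTBB OVX, 0.075 ± 0.061 in OVX and -3.22 ± 0.066 in Sham (SD, n = 3 pools each). The order was LTBB OVX, OVX, STBB OVX and Sham, and the ovariectomized groups overlapped. The difference of OVX from Sham was 3.30 (SE 0.091, 95% confidence interval 3.10 to 3.49, 9.82-fold, limma adjusted p = 2.8e-11), rank 37 of all genes. The corresponding differences were 3.31 in LTBB OVX and 3.29 in STBB OVX (SE 0.091 each, limma adjusted p = 2.7e-11 and 2.8e-11).

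Mepe, the other osteocyte gene of the family, had values of 0.17, 0.070 and 0.12 in STBB OVX pools, 0.025, 0.33 and -0.21 in LTBB OVX pools and -0.025, 0.42 and -0.28 in OVX pools, against -3.03, -3.34 and -3.20 in Sham pools. The LTBB OVX and OVX pools were wide apart, with all STBB OVX pools inside their range, and the gap to the highest Sham pool was 2.75. The means were 0.12 ± 0.051 in STBB OVX, 0.048 ± 0.27 in LTBB OVX, 0.037 ± 0.35 in OVX and -3.19 ± 0.15 in Sham (SD, n = 3 pools each). The order was STBB OVX, LTBB OVX, OVX and Sham, again with overlap in all but Sham. The difference of OVX from Sham was 3.23 (SE 0.16, 95% confidence interval 2.87 to 3.58, 9.37-fold, limma adjusted p = 2.8e-09), rank 44 of all genes. It was 3.24 for LTBB OVX and 3.31 for STBB OVX (SE 0.16 each, limma adjusted p = 2.7e-09 and 2.2e-09).

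An exact permutation test of 3 OVX against 3 Sham pools cannot go below p = 0.10, two-sided, and all 4 genes were at that value. With the 9 ovariectomized pools against the 3 Sham pools, the exact permutation p was 0.00909 for each gene, the smallest that this test can give. The size of the differences changed with a second quantile normalization of the arrays, run on values already centred per probe set. That step gives every array the same distribution of centred values, and so by construction shrinks the large deviations held by the Sham arrays. With it the OVX minus Sham differences were 1.67 for Spp1, 0.99 for Ibsp, 1.49 for Dmp1 and 1.499 for Mepe. All were still past the limma threshold (adjusted p of 2.4e-05 to 0.0229). The 3 contrasts with Sham share the same Sham arrays, so they are not separate measurements of those pools.

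**Figure D2:**
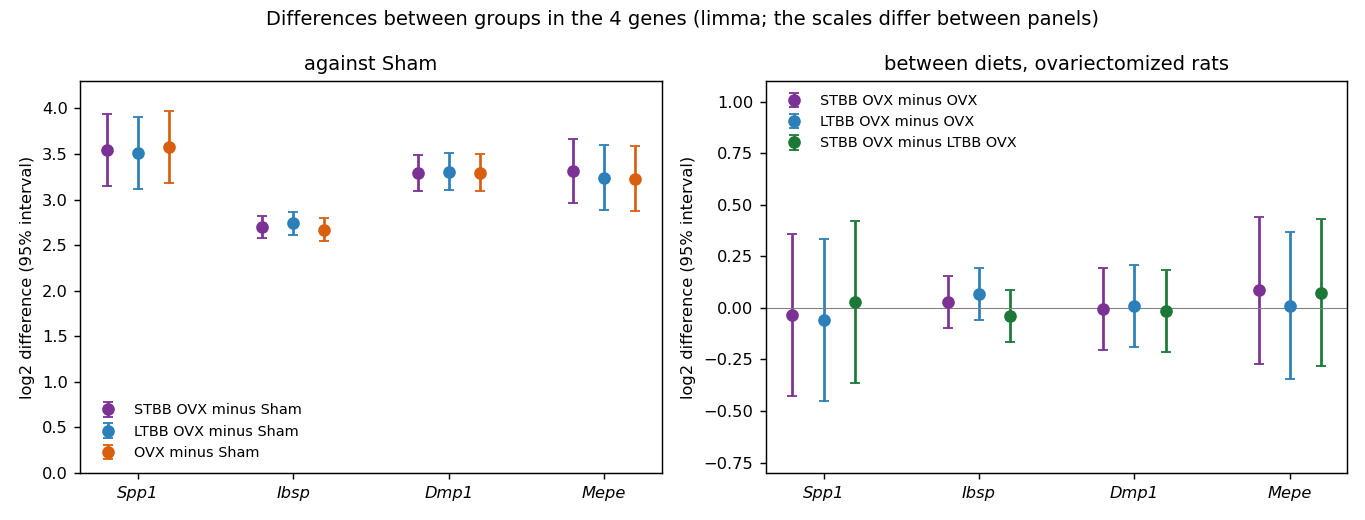
Log2 difference between groups with its 95% confidence interval (y axis) for each gene (x axis), against Sham at left and between diets in ovariectomized rats at right, on different scales. All differences from Sham lie between 2.67 and 3.57, and every interval between diets includes 0.

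The genes were not raised by the same amount. Over the 9 ovariectomized and 3 Sham pools, the rise of Spp1 exceeded that of Ibsp by 0.84 log2 units, and that of Ibsp was smaller than that of Dmp1 and Mepe (differences of -0.60 and -0.56). Each of these had an exact permutation p of 0.00909, the smallest that this test can give, or 0.0182 after Benjamini-Hochberg adjustment over the 6 pairs. Ibsp was in each of these pairs. Spp1 minus Ibsp was spread widely in Sham pools, from -1.43 to -0.31, against -0.18 to 0.16 in ovariectomized pools. The rises of Spp1, Dmp1 and Mepe were closer to each other. Spp1 minus Dmp1 was 0.24 (exact permutation p = 0.264, adjusted 0.316), Spp1 minus Mepe was 0.28 (p = 0.182, adjusted 0.273) and Dmp1 minus Mepe was 0.037 (p = 0.764, adjusted 0.764). Each gene was read by 1 probe set, so unequal change of the genes and unequal response of the probe sets cannot be told apart.

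The spread between pools also differed among the genes. The residual SD over the 12 arrays was 0.264 for Spp1, higher than in 96.4% of genes, and 0.236 for Mepe, higher than in 94.6%. It was 0.114 for Dmp1, near the median of 0.113, and 0.0370 for Ibsp, lower than in all but 0.535% of genes. The SD of Spp1 was 0.035 in STBB OVX, 0.084 in LTBB OVX and 0.062 in OVX, against 0.52 in Sham. That of Mepe was 0.051 in STBB OVX, 0.27 in LTBB OVX and 0.35 in OVX, against 0.15 in Sham, so its pools were wide in LTBB OVX and OVX but tight in STBB OVX.

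Osteoclast genes were read beside the wide Sham pools of Spp1, and they did not share 1 order. The first is Ctsk, an osteoclast protease, which was the gene most like Spp1 over all arrays. Ctsk was at -3.66, -4.24 and -3.40 in Sham pools 1, 2 and 3, and Spp1 was at -3.41, -4.08 and -3.06 in the same pools. Pool 2 was lowest and pool 3 highest in both genes, but Ctsk was picked for its likeness to Spp1 over arrays that include these pools. Their shared order is therefore no separate finding. Acp5 was at -4.16, -4.61 and -4.21, with pool 2 lowest but pool 1 highest, and Mmp9 was at -3.01, -3.38 and -3.51, with pool 3 lowest. The mean of the osteoclast list was -1.75, -2.00 and -1.74 in these pools, while Cd68, a lysosomal protein of macrophages, was at -2.23, -2.49 and -3.04, lowest in pool 3. Without Sham pool 2 the OVX minus Sham difference of Spp1 was 3.29, and without Sham pool 3 it was 3.80. The part of osteoclasts or macrophages in the Spp1 values was not tested.

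Neither BB diet moved any of the 4 genes past the test in ovariectomized rats, and 0% of all genes were called in each of the 3 contrasts (STBB OVX minus OVX, LTBB OVX minus OVX and STBB OVX minus LTBB OVX). With limma, 411 genes in STBB OVX and 329 in LTBB OVX had an unadjusted p under 0.05 against OVX (2.89% and 2.31%), and 484 between the diets (3.40%). With quantile normalization again, limma called 1 gene in STBB OVX minus OVX and 10 between the diets, and with only the 2 groups compared it called 40 genes in STBB OVX minus OVX. The intervals given here use the spread within all 4 groups, Sham included. That widens them for Spp1, with an SD of 0.52 in Sham and 0.035 to 0.084 in the ovariectomized groups. For Spp1 the difference was -0.033 (95% confidence interval -0.43 to 0.36) in STBB OVX and -0.059 (-0.45 to 0.33) in LTBB OVX. For Ibsp, the most tightly measured of the 4, it was 0.028 (-0.097 to 0.15) in STBB OVX and 0.067 (-0.058 to 0.19) in LTBB OVX. For Dmp1 the differences were -0.0061 (-0.20 to 0.19) for STBB OVX and 0.011 (-0.19 to 0.21) for LTBB OVX, and for Mepe 0.085 (-0.27 to 0.44) in STBB OVX and 0.011 (-0.34 to 0.37) in LTBB OVX. These small values had no stable sign for Dmp1 and Mepe when single pools were left out. Between the diets, STBB OVX minus LTBB OVX was 0.026 for Spp1, -0.039 for Ibsp, -0.017 for Dmp1 and 0.074 for Mepe.

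**Figure D3:**
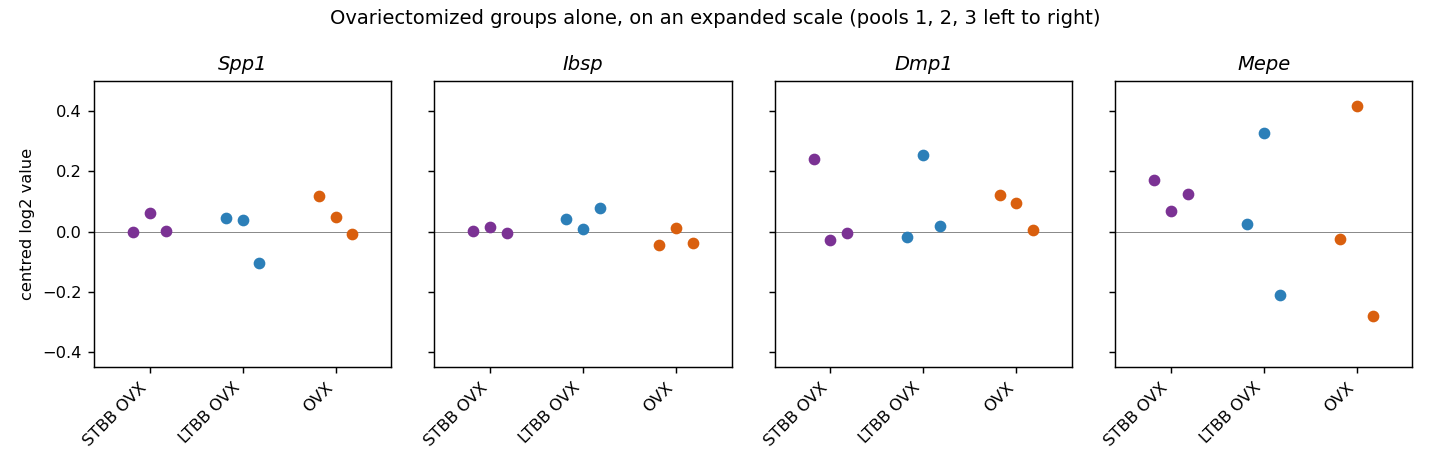
Centred log2 value (y axis) of the 4 genes in the pools of the ovariectomized groups alone (x axis), on an expanded scale. The pools of Ibsp lie within 0.12 of each other and those of Mepe within 0.70, and the groups overlap in each gene.

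Genes that modify, cut and bind these proteins were set beside them in the contrast of OVX with Sham, where 30.3% of all genes were higher. Among kinases, phosphatases and other mineral enzymes, 7 of 9 measured genes were higher and 1 lower, with a median of 1.37 against a median of 0.0047 over all genes. Fam20c, the kinase that phosphorylates secreted proteins of this family, was higher by 1.97 (SE 0.074), while its relative Fam20b, a xylose kinase, was at -0.13 and did not pass. Acp5, the tartrate-resistant phosphatase of osteoclasts that dephosphorylates osteopontin, was higher by 4.34 (SE 0.098). Alpl, the phosphatase that breaks down pyrophosphate, was higher by 2.60, Enpp1, which generates pyrophosphate, by 1.91, and Ankh, which exports it, by 1.18. Phospho1, a phosphatase of matrix vesicles, was higher by 1.37 and the phosphate transporter Slc20a2 by 0.59, and the transporter Slc20a1 fell by 0.49.

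Of the proteases known to cut these proteins or their neighbours in matrix, 12 of 16 were higher and 1 lower (median 1.55). Phex, which binds and degrades the acidic peptide of Mepe, was higher by 4.27, Ctsk by 3.81 and the gelatinase Mmp9 by 3.43. Bmp1, which processes Dmp1 to its active fragments, was higher by 2.63, and the proprotein convertase Furin fell by 0.71. Among receptors and binding partners, 7 of 11 were higher and 2 lower (median 0.68), against 30.3% of all genes called higher. The integrin subunit Itgav was higher by 2.55, Itga9 by 1.14, Itgb1 by 0.93, Itga5 by 0.89 and Itgb5 by 0.82. The hyaluronan receptor Cd44, which also binds osteopontin, was higher by 0.54, and Tgm2, a transglutaminase that crosslinks osteopontin, by 0.68. Itgb3, the partner of Itgav on osteoclasts, was at 0.065 (limma adjusted p = 0.512). The epithelial subunit Itgb6 fell by 2.80 and Itga8 by 0.35.

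Among transcriptional and hormonal regulators, 6 of 12 measured genes were higher and 1 lower (median 0.26), against 30.3% of all genes called higher. The homeobox genes Dlx5 and Dlx3 were higher by 2.36 and 1.86, Twist1 by 1.55, the parathyroid hormone receptor Pth1r by 1.36 and the vitamin D receptor Vdr by 0.89. Fgf23, the phosphaturic hormone of osteocytes, fell by 0.49 (limma adjusted p = 0.0016). The estrogen receptors Esr1 and Esr2 were at -0.030 and 0.16 and did not pass. Runx2, Sp7 and Dlx6 were not analysed here.

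**Figure D4:**
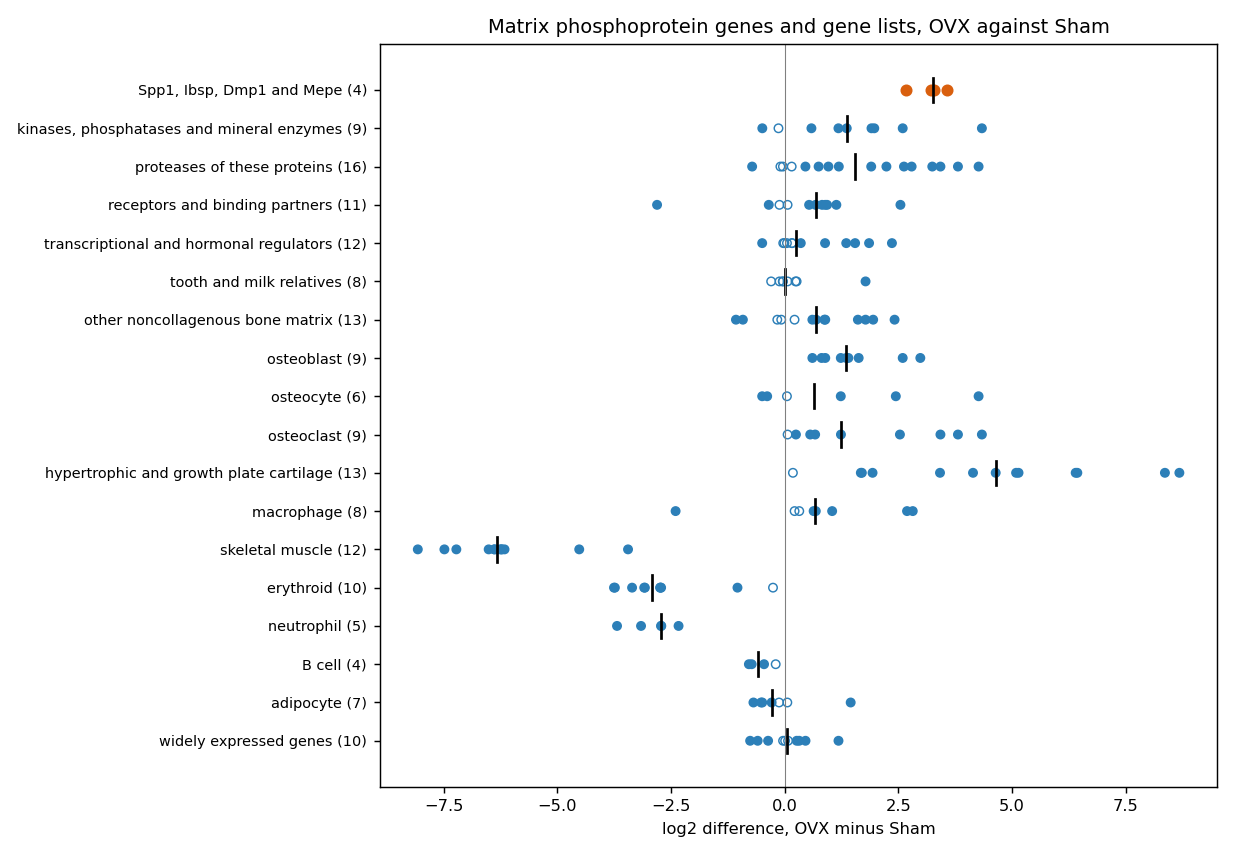
Log2 difference of OVX from Sham (x axis) for each measured gene of each list (rows, with the number of genes), filled where limma's adjusted p was under 0.05 and open where it was not, with a bar for the median of the list. The 4 matrix phosphoprotein genes at the top lie between 2.67 and 3.57, above the medians of all lists but cartilage (4.64).

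Further relatives and chromosomal neighbours of the 4 genes were read in the same contrast. Of 8 measured genes of secretory calcium-binding phosphoproteins of tooth and milk and their Sparc relatives, 1 was higher and 0 lower (median 0.013). That gene was Sparc, which encodes osteonectin (1.78). Dspp, which lies next to Dmp1 and was also counted in this list, and Sparcl1, the gene after it, at -0.30 (limma adjusted p = 0.139), were not called. On the other side of the run Pkd2, a polycystin channel gene adjacent to Spp1, was higher by 0.64 (SE 0.067). Of 12 protein-coding genes flanking the run, 7 were measured, of which 3 were higher (Abcg3l1 by 0.92, Pkd2, and Hsd17b11 by 0.59), 0 lower and 4 not called. That count stands beside 30.3% of all genes called higher in this contrast.

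**Figure D5:**
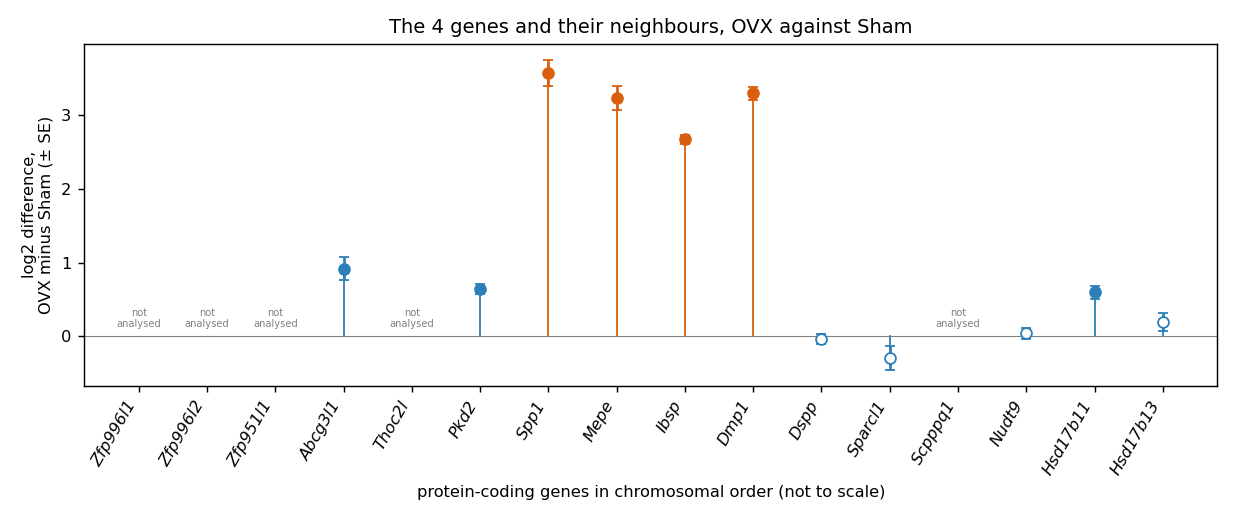
Log2 difference of OVX from Sham ± SE (y axis) for the 4 genes (orange) and the 6 protein-coding genes on either side (blue) in chromosomal order (x axis, not to scale), open where not called. The 4 genes are at 2.67 to 3.57, and the measured flanking genes lie between -0.30 and 0.92.

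Markers of several cell types moved with the same contrast, in which 30.3% of all genes were called higher. All 9 measured osteoblast genes were higher in OVX (median 1.36), with pool means of the list from -0.013 to 0.019 in OVX and -1.74 to -1.34 in Sham. Taken relative to that list, a comparison added after seeing the data, the OVX minus Sham differences were 2.07 for Spp1, 1.17 for Ibsp, 1.79 for Dmp1 and 1.73 for Mepe. The osteoblast genes that moved most were Bmp3 (2.98), Alpl and Col5a2 (1.63). The osteocyte list gave 3 of 6 genes higher and 2 lower (median 0.64). Those higher were Pdpn (2.45), Irx5 (1.24) and Phex, and those lower were Fgf23 (-0.49) and Ank2 (-0.38). Sost was at 0.051 (limma adjusted p = 0.627). The pool means of this list were -0.055 to 0.088 in OVX and -1.29 to -1.12 in Sham. The osteoclast list gave 8 of 9 higher (median 1.24), led by Acp5, Ctsk and Mmp9, with pool means of -0.010 to 0.15 in OVX and -2.00 to -1.74 in Sham. Of growth plate cartilage genes 12 of 13 were higher (median 4.64), with Col10a1 of hypertrophic chondrocytes at 8.68, Col9a1 at 8.36 and Panx3 at 6.44, and pool means of -0.065 to 0.32 in OVX and -4.37 to -4.26 in Sham. The macrophage list gave 5 of 8 higher and 1 lower (median 0.66), with Csf1r at 2.82, Cd68 at 2.69 and Cd163 at -2.40, and pool means of -0.011 to 0.10 in OVX and -1.10 to -0.31 in Sham.

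Marker lists of muscle and blood cells had medians below 0, and for fat cells and widely expressed genes the OVX and Sham pools overlapped. Over all 14217 genes, 4301 were called higher and 4066 lower in OVX than in Sham. All 12 skeletal muscle genes were lower in OVX (median -6.32), with pool means of -2.91 to -1.26 in OVX and 3.69 to 4.55 in Sham, and Myh2 (-8.07), Tnnt1 (-7.48) and Mb (-7.22) at the head. Of erythroid genes 9 of 10 were lower (median -2.91), with pool means of -0.24 to 0.079 in OVX and 2.32 to 2.74 in Sham, among them Epb42 (-3.75), Hemgn (-3.73) and Alas2 (-3.35). All 5 neutrophil genes were lower (median -2.72), with pool means of -0.31 to 0.034 in OVX and 2.47 to 3.01 in Sham, led by Camp (-3.69), Mmp8 (-3.16) and S100a8 (-2.72). The B cell list gave 3 of 4 lower (median -0.59), namely Ms4a1 (-0.79), Blnk (-0.72) and Cd22 (-0.45), with pool means of -0.20 to 0.14 in OVX and 0.28 to 0.69 in Sham. The adipocyte list gave 3 of 7 lower, 1 higher and 3 not called (median -0.29), and its pool means overlapped, at -0.18 to 0.13 in OVX and -0.17 to 0.31 in Sham, with Cfd at 1.45, Fabp4 at -0.69 and Adipoq at -0.52, the last not called. Among widely expressed genes 4 of 10 were higher and 3 lower (median 0.043), with Gusb at 1.18, Pgk1 at -0.76 and Sdha at -0.59 and pool means of -0.066 to 0.018 in OVX and -0.15 to -0.0027 in Sham. Taken relative to the widely expressed genes, a comparison added after seeing the data, the 4 genes differed by 3.52, 2.61, 3.24 and 3.17 (Spp1, Ibsp, Dmp1 and Mepe). The part of these cell types in the change of the 4 genes was not tested, and centred values do not show which markers are near 0.

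The muscle list was spread widely among the ovariectomized groups. Its pool means were -0.16 to 0.68 in STBB OVX and -2.98 to 0.59 in LTBB OVX, against -2.91 to -1.26 in OVX. Its median difference from OVX was 2.93 in STBB OVX and 0.92 in LTBB OVX, with 0 of 12 genes called in either. Over the same pools the 4 genes covered 0.12 to 0.70 log2 units.

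Over the 12 arrays, many genes shared the step between Sham and the other groups, so likeness of pattern is given as a description. Pearson's r of at least 0.99 was found with 120 genes for Spp1, 524 for Ibsp, 479 for Dmp1 and 86 for Mepe. The genes most like Spp1 were Ctsk (r = 0.999), Spsb1, Pmepa1, Aldh1a3 and Mt3. Those most like Ibsp were Clmp, Gpx8, Fkbp10, Mme and Srpx, and those most like Dmp1 were Tspan6, Sdc2, Ccdc80, Slit3 and Kdelr2. Mepe was most like Smim7, Slc41a2, Pls3, Sytl2 and Enpep (r = 0.995 to 0.996). Among themselves the 4 genes had r of 0.986 to 0.997 over the 12 arrays.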

How the data were processed

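The authors deposited log2 values of 12 Affymetrix arrays, made per their methods by robust multiarray analysis and normalized in GeneSpring per array and per probe set, and GCOS and RMA are named in the processing notes of the submitters (versions not given in the sources used here). After 57 control probe sets of 31099 were dropped, the other 31042 entered the analysis without any filter on dim signals. The platform annotation names 1 gene symbol for 20826, several for 436 and none for 9780, and 20758 symbols were updated with the RefSeq gene table of GRCr8, matched on gene ID. Probe sets of a gene were averaged, which gave 14217 genes.

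The test was limma (3.58.1, R 4.3.3): a model of 4 group means on 12 arrays gave 6 contrasts and an F test; p-values were adjusted over all genes (Benjamini-Hochberg, 0.05) after variance moderation. The fit was also run on simulated independent noise, with 200 of 14217 genes changed by 1 log2 unit in OVX. Such a setting is unlike these data, in which 58.9% of genes were called in OVX minus Sham. Exact two-sided permutation tests used scipy 1.17.1. Per the methods, each array held RNA of 2 to 3 rats, with at least 8 rats per group over its 3 arrays, so p-values measure the spread between pools of different rats. The 4 genes and all lists were chosen with earlier results of these data known. Text names the 4 genes, the 3 genes of each list with the largest difference of OVX from Sham, those of enzymes, receptors and regulators with a described role, the genes most like each of the 4 in pattern (5 over 12 arrays, 3 over 9) and the 6 protein-coding genes on either side. Ctsk, Acp5, Mmp9 and Cd68 in single Sham pools, Sost, Ank2, Bglap and Ahsg were named after their values were seen. Aspn and Tnn, the 2 genes of their list called lower, were also named outside these rules. Alternatives were other scalings, 1 probe set per gene, only 2 groups, robust variances, array weights, a replicate block, a fold threshold and leaving out each pool.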

Additional observations from a re-analysis of the deposited data

How the results depend on the processing

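The 12 differences of the 4 genes from Sham kept their direction and their limma call in all 20 alternatives run for each. The lowest came from quantile normalization again (0.99 to 1.67), which by construction shrinks the large deviations of the Sham arrays. That setting lowered the number of genes called to 3010 (OVX), 3192 (LTBB OVX) and 3142 (STBB OVX) against Sham, and gave 1 gene in STBB OVX minus OVX and 10 in STBB OVX minus LTBB OVX. A required change of at least 1.5-fold left 2874, 2876 and 2881 genes in OVX, LTBB OVX and STBB OVX against Sham. With only the 2 groups compared, 40 genes were called in STBB OVX minus OVX. Leaving out single pools gave 0 to 8 called genes in STBB OVX minus OVX and in STBB OVX minus LTBB OVX, 8 in both without LTBB OVX pool 3. The differences between diets were never called for the 4 genes, but the sign turned in 7 of 12. Dmp1 in STBB OVX minus OVX was 0.048 after quantile normalization and 0.014 with array weights. With single pools left out it ran from -0.092 to 0.042, Dmp1 in LTBB OVX minus OVX from -0.074 to 0.062, Dmp1 in STBB OVX minus LTBB OVX from -0.10 to 0.068, Mepe in LTBB OVX minus OVX from -0.15 to 0.20, Mepe in STBB OVX minus OVX from -0.074 to 0.28, Mepe in STBB OVX minus LTBB OVX from -0.054 to 0.21 and Spp1 in STBB OVX minus LTBB OVX from -0.022 to 0.052. The cause was not tested. Relative to the osteoblast list the OVX minus Sham differences were 2.07 (Spp1), 1.17 (Ibsp), 1.79 (Dmp1) and 1.73 (Mepe), and relative to widely expressed genes that of Ibsp was 2.61, by construction smaller where the list itself was higher.

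The pool numbers gave no sign of pairing the samples. Of 18 same-numbered pairs 2 had a correlation of deviations over 0.1 (-0.279 to 0.158). Of 36 differently numbered pairs 8 did (-0.171 to 0.291). With pool number as a replicate block the OVX minus Sham difference of Spp1 stayed at 3.57 (limma adjusted p = 2.5e-08), 8196 genes were called, and no call of the 4 genes changed. The 3 pools per group limit the precision, and no filter on dim probe sets was possible, since signal over background is not held by centred values.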

Other observations

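Other noncollagenous proteins of bone matrix gave a mixed picture beside the acidic phosphoproteins. Of 13 measured genes 8 were higher in OVX than in Sham and 2 lower (median log2 difference 0.69). Among all genes, 30.3% were called higher. The proteoglycan Bgn was higher by 2.42 (SE 0.10), Mgp, an inhibitor of calcification, by 1.95 (SE 0.13), and Sparc by 1.78 (SE 0.076). Bglap, the osteocalcin gene, was higher by 0.89 (SE 0.11, limma adjusted p = 8.3e-06). Aspn fell by 1.07 and Tnn by 0.92, and Ahsg, the gene of the circulating mineral-binding protein fetuin, was at -0.16 (limma adjusted p = 0.183).

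Within the 9 arrays of ovariectomized rats alone, where the 4 genes covered less than 1 log2 unit, their correlations were of both signs. Pearson's r was 0.53 between Dmp1 and Mepe, 0.41 between Spp1 and Mepe, 0.17 between Spp1 and Dmp1, -0.0047 between Ibsp and Mepe, -0.21 between Ibsp and Dmp1 and -0.61 between Spp1 and Ibsp. These are descriptions over 9 pools of 3 diets. The genes most like each member over these arrays also differed from those over all 12: Zfyve28 (r = 0.979), Rab11b and S100a1 for Spp1, Fli1 (r = 0.934), Sf3b6 and Gtf2a2 for Ibsp, Mef2a (r = 0.928), Ccnd2 and Snapc5 for Dmp1, and Emc6 (r = 0.945), Arl6ip5 and Cntn4 for Mepe.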
